A study of Mus musculus with 24 samples.

Results

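The 35 genes described here are 28 chemokine ligands and 7 chemokine receptors of the mouse, chosen by name as a family. A probe whose accession named the gene was found for 34 of the 35, in 44 probes of 41174, and Cxcl11 had none. Of the 34, 24 had 1 probe and 10 had 2, and a gene with 2 was read on the brighter one. The arrays carry probes for 18747 named genes in all.

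RNA came from live CD105+/CD45- cells sorted from collagenase digests of the aorta (root and arch down to the iliac bifurcation) and of leg muscles (plantaris, gastrocnemius and biceps femoris). CD105, or endoglin, is a surface protein of endothelial cells, and CD45, the product of Ptprc, is a surface protein of all leukocytes, so leukocytes were gated out. The male mice were WT (C57BL/6J) or KO (B6.Cg-Lgals3tm1Poi/J, with a targeted deletion in Lgals3, the gene of galectin-3, in every cell of the body). From 8 weeks of age they ate chow with 12% or a high-fat diet (HFD) with 60% of calories from fat, for 8 weeks. The 8 groups (aorta or muscle, WT or KO, chow or HFD) had 3 arrays each, 1 per experiment, and each array carried amplified RNA of the cells of 3 to 4 pooled mice. The same 12 pools gave both tissues, so an aorta and a muscle array of a pool share their animals.

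Chemokines are small secreted or membrane-bound proteins that direct the movement of leukocytes through G protein-coupled receptors. Endothelial cells make some of them, carry others on their surface sugars, and so decide in part which leukocytes stop on the vessel wall. CC, CXC, CX3C and XC ligands are named for the spacing of their first cysteines, and most inflammatory CC and CXC genes lie side by side in chromosomal clusters. Atypical receptors bind chemokines without G protein signalling and remove or carry them. Galectin-3 is a sugar-binding protein, and the study asked how its loss alters the response of both endothelia to the diet.

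Levels are given as the log2 of the processed signal over the 75th percentile of its array, so that 0 is the level of that percentile. That percentile lay between 2390 and 5938 signal units, and the software marked 59.5% to 75.7% of 43379 non-control spots as well above background. Each gene's level is set only against the level of the same probe on other arrays. All 14 endothelial marker genes were well above background on every array, with a summed signal, relative to the 75th percentile, of 163 to 521 in aorta and 508 to 811 in muscle. The summed level of 9 fibroblast markers was 318 to 708 in aorta and 24.3 to 227 in muscle. Markers of skeletal muscle fibres gave 1.03 to 6.36 in aorta and 19.5 to 146 in muscle, and 8 pan-leukocyte genes, Ptprc included, gave 1.54 to 4.67 and 1.38 to 23.5. The 2 arrays with the highest leukocyte sums were the muscle HFD arrays of experiment 1, with 23.5 in KO and 13.3 in WT. The Lgals3 probe was well above background on 24 of 24 arrays and read higher with the KO label than with the WT label in 11 of 12 matched pairs. Its KO minus WT log2 difference ran from −0.79, in the HFD aorta pair of experiment 1, to 3.04 (median 1.30). Its position within the gene was not analysed here, so it neither checks nor contradicts the labels, and each array keeps the strain of its label.

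Of the members, 15 were well above background on 24 of 24 arrays, all ligands but 1. They were Ccl2, Ccl4, Ccl6, Ccl9, Ccl11, Ccl19, Ccl25, Cxcl1, Cxcl9, Cxcl10, Cxcl12, Cxcl14, Cxcl16, Cx3cl1 and the receptor Cxcr4. Ccl7, Ccl8 and Cxcl13 were detected on all 12 aorta arrays and on 9, 11 and 11 muscle arrays, so that 18 members were detected throughout in aorta and 15 in muscle. Ccl5 was detected on 11 aorta and 10 muscle arrays. Cxcl5, a neutrophil attractant, was detected on 7 aorta arrays and on 0 muscle arrays. At the dim end stood both receptors of leukocytes and ligands. Ccr1 was well above background on 0 of 24 arrays, Cx3cr1, the fractalkine receptor of monocytes, on 2 in aorta and 1 in muscle, and Ccr2, the receptor of inflammatory monocytes, on 4 and 5. Ccl22 was detected on 1 array in each tissue and Xcl1 on 0 in aorta and 2 in muscle. Ccl3 was detected on 4 aorta and 6 muscle arrays, Ccl12 on 3 and 7, and Cxcl2 on 7 and 3. No member spot was saturated.

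**Figure D1:**
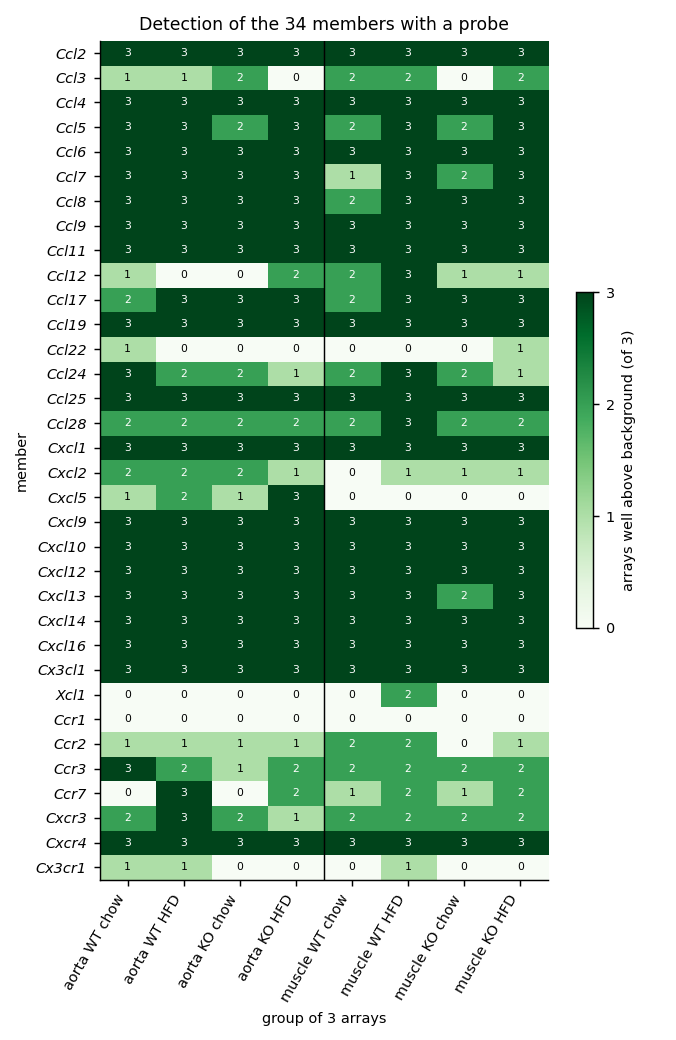
Detection of the 34 members with a probe (rows) in the 8 groups (columns), with the number of arrays of 3 on which the probe was well above background. Most ligands and Cxcr4 are detected on 3 of 3 arrays in every group, while Ccr1 is detected in none and Cxcl5 in every aorta group but no muscle group.

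The widest differences among these genes lay between the tissues. Aorta and muscle arrays were on separate slides, so tissue and slide cannot be told apart in this comparison. In aorta, the monocyte attractants Ccl2, Ccl7 and Ccl8, the eosinophil attractant Ccl11, the neutrophil attractants Cxcl1 and Cxcl5, the lymphoid ligands Ccl19, Ccl25 and Cxcl13, the interferon-inducible Cxcl10 and the membrane-bound Cxcl16 were higher than in muscle. In muscle, the receptor Cxcr4 was higher than in aorta, and so was its ligand Cxcl12 on the brighter of its 2 probes, while the other Cxcl12 probe was higher in aorta. Of 34 members, 27 could be tested (limma, mean over the 4 strain and diet groups, adjusted over all 27387 probes tested), and 13 passed an adjusted p under 0.05 (48.15%, beside 46.1% of all probes). The share of members called was thus close to that of all probes. There were 11 members higher in aorta (16% of all probes were) and 2 higher in muscle (30.1% of all probes), with Cxcl12 counted by its brighter probe. Of the 27, Cxcl5, Ccr3, Ccr7 and Cxcr3 entered the test only through aorta groups and Ccl12 and Ccl28 only through muscle groups, and of these Cxcl5 is among the 13. The median log2 difference, aorta minus muscle, was 0.58 over the tested members and −0.27 over all probes. With the deposited log2 table, which was scaled within each tissue, the median of all probes was −0.01, and 58.9% of all called probes were higher in aorta, against 34.6% here. The same 13 members were called in the same directions with that table, with quantile normalization and with another background correction.

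The 12 aorta and 12 muscle arrays did not overlap at all for 4 members (Ccl2, Ccl7 and Ccl19, higher in aorta, and Cxcr4, higher in muscle), while 5.65% of all probes did not overlap (3.55% higher in aorta and 2.1% in muscle). All 13 called members had the same sign in each of the 3 experiments, and 10 of them had it in every pool. In Ccl8, Ccl25 and Cxcl5 the sign held in 11 of 12 pools. Another 14 members were tested and not called, with log2 differences between −0.90 and 1.34 and standard errors between 0.18 and 1.17. Ccl3, Ccl22, Cxcl2, Xcl1, Ccr1, Ccr2 and Cx3cr1 were too dim to test.

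Markers of other cells differed in the same comparison. All 9 fibroblast markers were called higher in aorta, with every aorta sum above every muscle sum, and 13 of 14 endothelial (12 with the deposited values) and 9 of 9 muscle fibre markers were called lower. Of 7 tested adipocyte markers 5 were called higher in aorta and 2 lower, of 6 pericyte markers 0 higher and 4 lower, and of 7 smooth muscle markers 1 higher and 4 lower. Of 7 lymphatic endothelial markers, 4 were called higher in aorta and 1 lower (sums 24.01 to 96.8 against 0.68 to 28.9). Their part in the members' differences was not tested, and in such RNA of sorted pools fewer cells of a type and less RNA per cell cannot be told apart. Of 7 tested pan-leukocyte genes 0 were called higher in aorta and 1 lower, and of 12 macrophage genes 1 higher and 0 lower. Of 8 T and NK cell genes 2 were called higher, Lck (1.29) and Thy1 (2.17), and 0 lower. The T and NK cell sums were 11.8 to 48.6 in aorta and 3.12 to 13.3 in muscle.

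**Figure D2:**
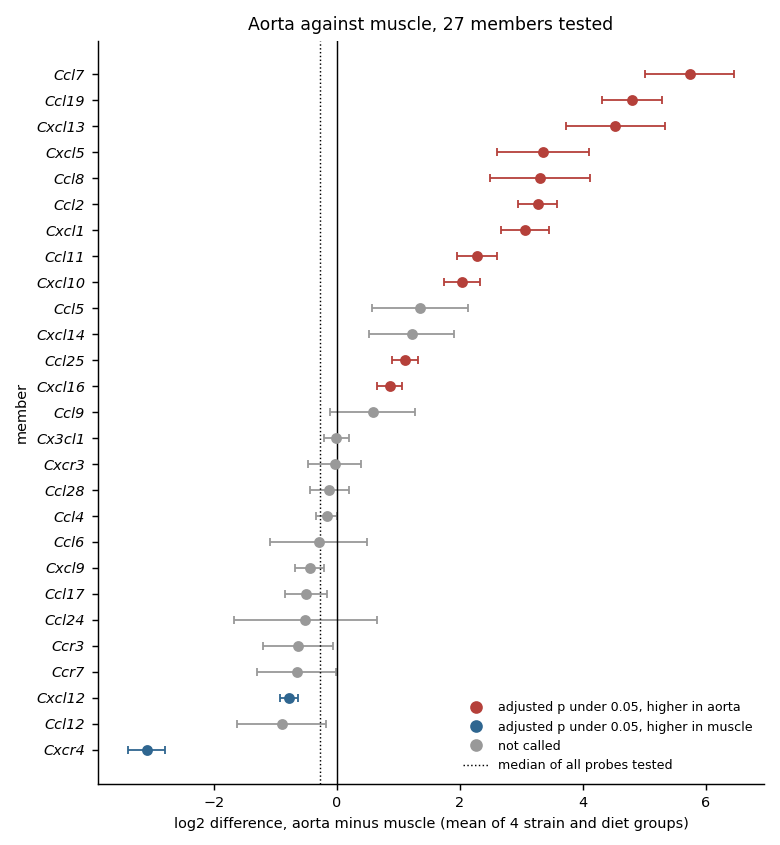
Log2 difference between aorta and muscle (horizontal axis, mean of 4 strain and diet groups, bars are standard errors) for the 27 members tested. The 11 members called higher in aorta lie right of 0, from Cxcl16 at 0.86 to Ccl7 at 5.74, and Cxcl12 at −0.78 and Cxcr4 at −3.10 lie left of it.

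The 250 bases before the transcription start are shown for the members called between the tissues with a promoter in RefSeq's list, apart from Ccl25, for which it held more than 1 start, so that the start-proximal sequence of genes higher in aorta can be read beside that of the pair higher in muscle. Coordinates are on GRCm38.p6, each sequence is written 5′ to 3′ on the strand of its gene, and capitals mark a match to a searched motif. Cxcl1 lies at chr5:90890995-90891244 (+), Cxcl10 at chr5:92348890-92349139 (−), Cxcl13 at chr5:95956689-95956938 (+), Ccl8 at chr11:82114935-82115184 (+), Ccl19 at chr4:42756366-42756615 (−), Cxcr4 at chr1:128592300-128592549 (−) and Cxcl12 at chr6:117168285-117168534 (+).
Cxcl1: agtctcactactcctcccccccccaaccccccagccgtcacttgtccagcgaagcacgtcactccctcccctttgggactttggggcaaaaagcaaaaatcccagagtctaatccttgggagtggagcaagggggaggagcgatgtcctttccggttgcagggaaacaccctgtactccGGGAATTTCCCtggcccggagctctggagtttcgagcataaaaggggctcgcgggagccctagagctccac
Cxcl10: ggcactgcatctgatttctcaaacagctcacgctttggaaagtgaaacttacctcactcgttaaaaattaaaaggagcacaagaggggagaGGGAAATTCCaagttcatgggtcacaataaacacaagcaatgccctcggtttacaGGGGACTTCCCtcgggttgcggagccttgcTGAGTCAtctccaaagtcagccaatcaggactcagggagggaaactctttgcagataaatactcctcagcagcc
Cxcl13: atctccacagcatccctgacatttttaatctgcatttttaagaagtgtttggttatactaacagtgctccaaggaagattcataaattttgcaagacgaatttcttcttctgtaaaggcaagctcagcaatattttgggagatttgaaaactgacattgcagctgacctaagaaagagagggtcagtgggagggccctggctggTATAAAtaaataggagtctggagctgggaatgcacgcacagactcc
Ccl8: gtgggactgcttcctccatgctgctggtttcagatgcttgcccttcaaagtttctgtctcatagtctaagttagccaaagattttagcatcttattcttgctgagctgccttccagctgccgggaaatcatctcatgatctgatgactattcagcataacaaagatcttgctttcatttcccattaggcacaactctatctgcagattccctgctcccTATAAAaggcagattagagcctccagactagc
Ccl19: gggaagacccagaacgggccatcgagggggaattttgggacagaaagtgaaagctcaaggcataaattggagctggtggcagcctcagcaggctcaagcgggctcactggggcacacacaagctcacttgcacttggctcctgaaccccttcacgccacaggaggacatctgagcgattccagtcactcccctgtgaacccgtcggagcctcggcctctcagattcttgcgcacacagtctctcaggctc
Cxcr4: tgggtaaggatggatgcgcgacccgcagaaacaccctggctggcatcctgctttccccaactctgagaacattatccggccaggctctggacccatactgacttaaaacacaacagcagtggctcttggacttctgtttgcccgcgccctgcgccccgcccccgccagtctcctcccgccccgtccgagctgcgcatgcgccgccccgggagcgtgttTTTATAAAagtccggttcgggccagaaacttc
Cxcl12: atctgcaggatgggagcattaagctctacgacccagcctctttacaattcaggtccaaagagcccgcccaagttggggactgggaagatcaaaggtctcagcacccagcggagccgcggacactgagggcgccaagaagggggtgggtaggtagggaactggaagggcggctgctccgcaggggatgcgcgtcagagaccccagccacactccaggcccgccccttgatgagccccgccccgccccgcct

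A promoter was held for 25 members, and 4 motifs were searched on both strands. Matches may overlap each other, as a palindromic stretch counts on both strands. The TATA box (TATAAA) stood in 8 of the 25 (12.4% of all 32851 promoters of this length), AP-1 (TGANTCA) in 3 (6.75%), the interferon-gamma element GAS (TTCNNNGAA) in 2 (7.02%) and NF-kB, the site of the factor of that name, in 6 (7.25%). In the printed sequences, Cxcl1 held NF-kB matches from −71 to −61, counted from the start, and Cxcl10 held them from −159 to −150 and from −104 to −94, with an AP-1 match from −74 to −68. Ccl8, Cxcl13 and Cxcr4 held a TATA box (first bases at −32, −46 and −32). These letters were not found in the windows of Ccl19 and Cxcl12. A match describes the sequence and says nothing of a factor on it in these cells.

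Among the inflammatory CC ligands, 10 of 11 were tested, 4 were called higher in aorta and 0 lower. Ccl2, which draws monocytes through Ccr2, lay between 2.07 and 4.00 in aorta (median 2.87) and between −2.33 and 1.76 in muscle (median −0.43). Its log2 difference was 3.27 ± 0.32 (SE, 12 arrays per tissue, adjusted p = 1.47e-07), and the tissues did not overlap. The difference was 4.55 in WT and 4.11 in KO on chow, and 2.39 in WT and 2.02 in KO on HFD. Ccl7, a further ligand of Ccr2, lay between −0.04 and 3.86 in aorta (median 1.73) and between −9.34 and −1.44 in muscle (median −3.11). At 5.74 ± 0.73 (adjusted p = 3.80e-06) it had the largest log2 difference of the 27, positive in every pool. No muscle array reached the lowest aorta array, but 3 of the 12 muscle arrays were not well above background, so their level is only bounded there.

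Ccl8, of the same monocyte attractant family, ran from −2.71 to 3.34 in aorta (median 0.93) and from −5.86 to 1.73 in muscle (median −3.22). The tissues overlapped, and the log2 difference was 3.31 ± 0.81 (adjusted p = 0.00269), 1.41 in experiment 1 and 4.22 and 4.29 in the other two. Without experiment 3 it was 2.81, with an adjusted p of 0.0515 and no longer called. Ccl11, or eotaxin, which draws eosinophils through Ccr3, lay between 1.69 and 4.27 in aorta (median 3.74) and between −0.61 and 2.34 in muscle (median 1.23), a difference of 2.28 ± 0.33 (adjusted p = 1.70e-05). The ranges touched only at the low aorta arrays, which were chow arrays of both strains. Ccl7 and Ccl8 were not called when only probes well above background on every array were tested, since they were then left out.

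The other inflammatory CC ligands tested were not called between the tissues, which does not show equal levels. Ccl4, an attractant of monocytes and T cells, lay between 3.76 and 5.49 in aorta and between 4.49 and 5.44 in muscle, with a log2 difference of −0.17 ± 0.18 (adjusted p = 0.437). Ccl5, which draws T cells and monocytes, ran from −6.33 to 1.45 in aorta (median −1.14) and from −6.20 to 0.45 in muscle (median −2.60), a difference of 1.34 ± 0.78 (adjusted p = 0.165). Its spread within a group of 3 arrays reached several log2 units, as in KO chow aorta with −0.53, −3.41 and −6.33. Ccl6 and Ccl9, ligands of Ccr1, differed by −0.30 ± 0.79 and 0.58 ± 0.69, and Ccl12, a ligand of Ccr2, by −0.90 ± 0.72.

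Among the homeostatic and dendritic cell CC ligands, 4 of 5 were tested and 2 called, both higher in aorta. Ccl19, which guides Ccr7-bearing dendritic and T cells, lay between 1.82 and 5.38 in aorta (median 4.23) and between −2.70 and 1.09 in muscle (median −0.87), with no overlap. The log2 difference was 4.80 ± 0.49 (adjusted p = 3.19e-07), and its other probe gave 4.76. The mouse genome holds near-identical copies of Ccl19, so its signal may include theirs. Ccl25, known from thymus and gut as the ligand of Ccr9, lay between −1.77 and 0.41 in aorta and −3.03 and −1.11 in muscle and was higher in aorta by 1.11 ± 0.21 (adjusted p = 0.000358). Ccl17, a ligand of Ccr4, differed by −0.50 ± 0.34 (adjusted p = 0.234).

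Both tested neutrophil-attracting CXC ligands were higher in aorta. Cxcl1 lay between 0.66 and 4.38 in aorta (median 3.45) and between −1.37 and 1.45 in muscle (median −0.04), a log2 difference of 3.06 ± 0.39 (adjusted p = 4.30e-06). A single aorta array, KO chow of experiment 1, lay within the muscle range. Cxcl5 was not well above background on any muscle array, so its level there is a bound (measured means −5.09 in aorta and −8.44 in muscle). Its aorta mean was 2.10-fold above the mean of the muscle arrays' lowest levels well above background. That floor is approximate, as probes not well above background can read above it. Only 7 of 12 aorta arrays measured Cxcl5, so its aorta mean includes dim arrays. It entered the test through KO HFD aorta alone, a group in which it was high, so the fold is a description. The third, Cxcl2, was too dim to test, with 7 aorta and 3 muscle arrays above background. Of 8 neutrophil markers, 1 to 4 were well above background on an aorta array, and Elane and Ngp were on none.

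The interferon-inducible ligands of Cxcr3, which draw activated T cells, did not move together. Cxcl10 lay between −1.11 and 1.56 in aorta (median 0.63) and between −3.56 and −0.39 in muscle (median −1.45), with a log2 difference of 2.03 ± 0.29 (adjusted p = 1.44e-05). Cxcl9 lay between 1.55 and 3.99 in aorta (median 2.90) and between 2.37 and 4.72 in muscle (median 3.05). Its difference of −0.45 ± 0.23 did not pass (adjusted p = 0.124). That mean joins 0.10 in WT and 0.94 in KO on chow with −1.36 and −1.47 on HFD. Whether the 2 genes' tissue differences differ from each other was not tested.

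Of the remaining CXC ligands, 2 were higher in aorta and 1 in muscle. Cxcl13, which draws B cells through Cxcr5, lay between −1.91 and 3.26 in aorta (median 0.61) and between −8.15 and −1.14 in muscle (median −3.69). Its log2 difference was 4.52 ± 0.80 (adjusted p = 0.000187), positive in 11 of 11 pools, with the WT HFD muscle array of experiment 2 left out as an outlier spot. Cxcl16, a membrane-bound ligand of Cxcr6, lay between 1.08 and 3.16 in aorta (median 2.12) and between 0.61 and 2.57 in muscle (median 1.30). Its difference of 0.86 ± 0.21 (adjusted p = 0.0023) was the smallest called higher in aorta, and without experiment 1 it was 0.83 with an adjusted p of 0.0721.

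Cxcl12, the ligand that holds Cxcr4-bearing cells in tissues and guides vessel growth, lay between 5.04 and 6.55 in aorta (median 5.66) and between 6.06 and 6.85 in muscle (median 6.42). The muscle array was higher in each of the 12 pools, and the log2 difference was −0.78 ± 0.14 (adjusted p = 0.000158). The other probe of Cxcl12 went the opposite way, 1.67 higher in aorta (adjusted p = 6.67e-05), so that the direction holds for the brighter probe alone. Cx3cl1, or fractalkine, a membrane-bound adhesion ligand of endothelial cells, lay between 1.58 and 3.84 in aorta and 2.11 and 3.76 in muscle and differed by −0.01 ± 0.21 (adjusted p = 0.97). Cxcl14 was not called.

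**Figure D3:**
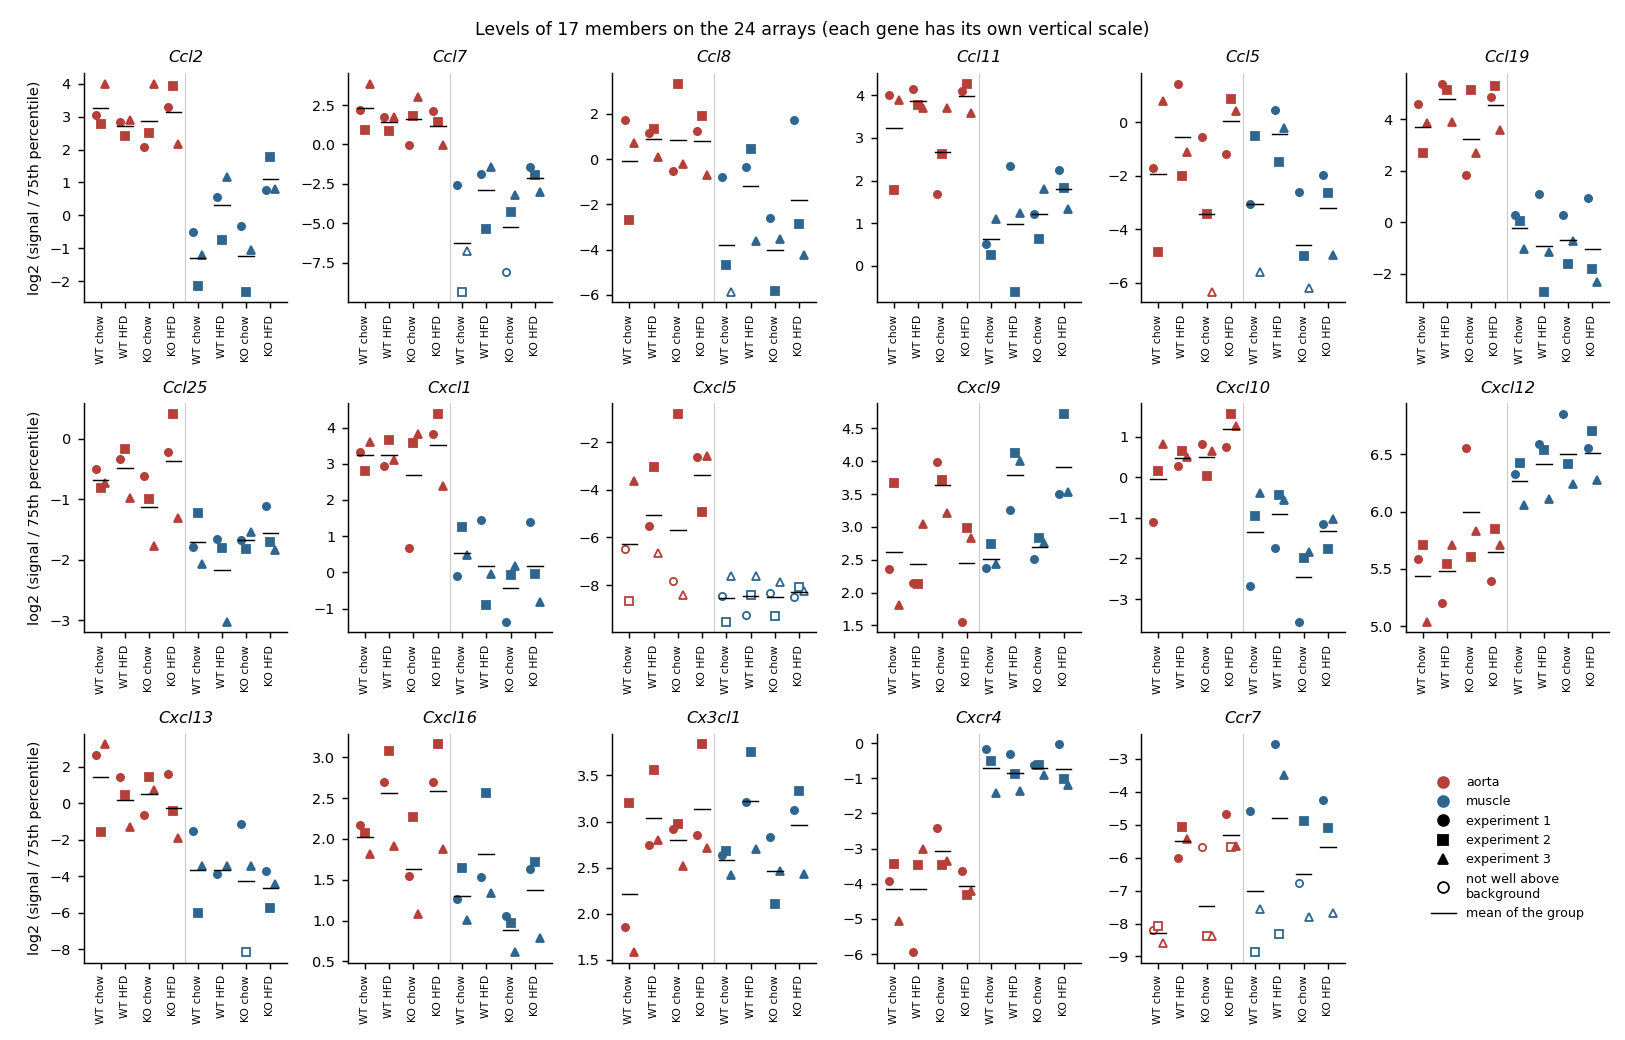
Levels (vertical axis, log2 of signal over the array's 75th percentile, each gene on its own scale) of 17 members on the 24 arrays, by group, with the marker shape giving the experiment. Ccl2, Ccl7 and Ccl19 lie higher on every aorta array than on any muscle array and Cxcr4 lower, while Cx3cl1 and Cxcl9 overlap.

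Receptors were dim, and Cxcr4 alone was called. Cxcr4, the receptor of Cxcl12, which marks sprouting endothelial tip cells as well as many leukocytes, lay between −5.94 and −2.41 in aorta (median −3.55) and between −1.43 and −0.03 in muscle (median −0.75). Every muscle array stood above every aorta array, and the log2 difference was −3.10 ± 0.30 (adjusted p = 1.62e-07), −3.70, −2.91 and −2.69 in the 3 experiments. Its other probe gave −2.45. Ccr7, the receptor of Ccl19, was detected on 5 aorta and 6 muscle arrays and differed by −0.66 ± 0.64 (adjusted p = 0.411).

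Several of these genes are neighbours, and their tissue differences are given in chromosomal order, with no test between rows of genes. On chromosome 11, Ccl2, Ccl7, Ccl11 and Ccl8 stand in a row with Ccl12 between the last pair, and all but Ccl12 (−0.90 ± 0.72) were called higher in aorta. In a second row of the same chromosome, Ccl5, Ccl9, Ccl6 and Ccl4 were not called, with differences from −0.30 to 1.34. On chromosome 5, Cxcl5 and Cxcl1 were higher in aorta, while Ppbp and Pf4, platelet chemokines that lie between them, were lower, by log2 differences of −1.22 ± 0.38 and −0.87 ± 0.33. Cxcl9 and Cxcl10 lie on either side of Art3, which was lower in aorta by −1.81 ± 0.19. On chromosome 8, Cx3cl1 and Ccl17 were not called. Neighbours in a row are related in sequence, and cross-hybridisation between their probes was not tested.

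**Figure D4:**
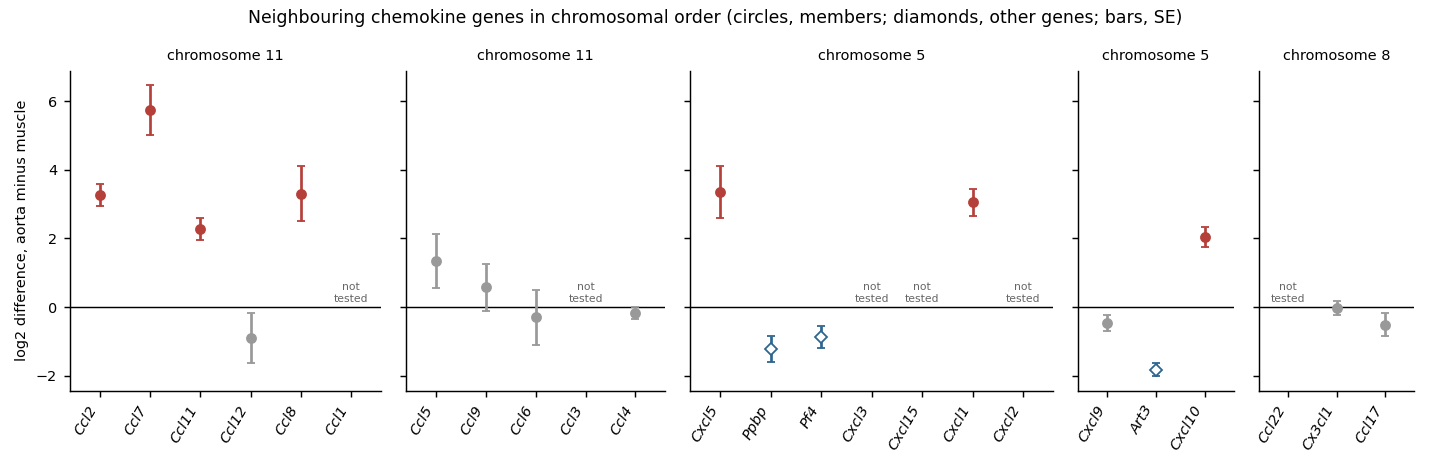
Aorta minus muscle log2 difference (vertical axis, bars are standard errors) of neighbouring chemokine genes in chromosomal order, 1 panel per row of genes, with circles for members and diamonds for other genes. In the first row of chromosome 11 the values of Ccl2, Ccl7, Ccl11 and Ccl8 lie between 2.28 and 5.74, and in the second none was called.

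Other genes of the pathway were read from lists. Of 12 further ligands, 5 were tested and all called, 3 higher in aorta, Ccl21a by 4.44 ± 0.88, Cxcl17 by 2.42 ± 0.41 and Ccl27a by 0.78 ± 0.22, and 2 lower, the Ppbp and Pf4 named above. Ccl21a, the other ligand of Ccr7, and Ccl27a have near-identical copies in the mouse genome, and Pf4 and Ppbp were not called with the deposited values. None of 4 tested further receptors was called. Of 5 tested atypical receptors, 3 were higher in aorta, the CC scavenger Ackr2 by 5.37 ± 0.72, Ackr4, which takes up Ccl19, Ccl21a and Ccl25, by 4.59 ± 0.51, and Ackr3, the second receptor of Cxcl12, by 0.33 ± 0.12. Ackr1, which carries chemokines across venules, was lower by −1.30 ± 0.26 (adjusted p = 0.000442).

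Of 21 tested genes of receptor signalling, 4 were higher in aorta and 11 lower, with the largest difference, −3.70, in Rgs5, a G protein regulator that is also a pericyte marker. The kinases Grk3 and Grk2, which switch receptors off, differed by −1.37 and −1.33, the G protein subunits Gng11 and Gnai2 by −0.93 each, and the regulator Rgs16 by 0.95. With the deposited log2 values 4 were higher and 6 lower. Of 14 genes that present or cleave chemokines, 4 were higher and 5 lower, among them the protease Mmp2 (3.62) and the heparan sulphate core proteins Sdc2 (2.78), Sdc4 (2.10) and Sdc1 (1.65), higher in aorta, and Sdc3 (−1.95) and the heparan sulphate epimerase Glce (−0.78), lower. Of 17 inducers of chemokine genes, 5 were higher and 6 lower in aorta. Il6 (4.94), the NF-kB regulator Nfkbiz (1.62) and the endotoxin receptor Tlr4 (1.56) were higher, and Irf7 (−1.54), a factor of the interferon response, Tnf (−1.37) and Il4ra (−1.05) lower. With the deposited log2 values 6 presenting or cleaving genes were higher and 3 lower, and 5 inducers higher and 3 lower.

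The study asked next what the diet did. No member passed the test of HFD against chow in muscle over both strains, with 0 of 23 tested called beside 0.288% of all probes (limma, pairs of HFD and chow arrays of a strain and experiment). At an unadjusted p under 0.05, 8 members were higher on HFD (7.28% of all probes) and 0 lower (9.1%). These were Ccl2, Ccl5, Ccl7, Ccl8, Cxcl9, Cxcl10, Cxcl16 and Cx3cl1. Ccl5 and Ccl7, like the tested Ccl12, Ccl24 and Ccl28, entered the muscle test only through HFD groups, where they were measured on 3 of 3 arrays, so their place among these is a description. Over WT alone 0 of 23 were called and 4 had an unadjusted p under 0.05 (0% and 12.1% of all probes), and over KO alone 0 and 4 (0.00389% and 8.49%).

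Cxcl9 had the smallest adjusted p in muscle. Its levels in experiments 1, 2 and 3 were 2.37, 2.74 and 2.44 in WT chow and 3.26, 4.13 and 4.01 in WT HFD, and 2.51, 2.84 and 2.75 in KO chow and 3.50, 4.72 and 3.54 in KO HFD. Every HFD array lay above every chow array, and the log2 difference was 1.25 ± 0.20 (SE, 6 pairs, adjusted p = 0.0874). Over the alternatives its adjusted p ran from 0.0279 to 0.32.

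Ccl2 in muscle was −0.52, −2.16 and −1.20 in WT chow and 0.55, −0.76 and 1.17 in WT HFD. In KO it was −0.34, −2.33 and −1.07 on chow and 0.77, 1.76 and 0.79 on HFD. The HFD array was higher in 6 of 6 pairs, by log2 ratios of 1.07, 1.40 and 2.37 in WT and 1.11, 4.09 and 1.86 in KO, a mean of 1.98 ± 0.40 (adjusted p = 0.109, range over the alternatives 0.0449 to 0.327). Ccl2 was thus the single tested member past 1 in all 3 experiments, the study's own criterion, in WT muscle and likewise in KO muscle (0.872% and 0.459% of all tested probes were past 1 upwards). Below −1 stood 0 tested members in both, beside 0.954% and 0.53% of all probes.

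Ccl7 in muscle was also higher on HFD in 6 of 6 pairs, with log2 ratios of 0.73, 3.99 and 5.29 in WT and 6.64, 2.35 and 0.21 in KO. Its signal cleared the background on 1 of 3 chow arrays in WT and 2 of 3 in KO and on all HFD arrays, so several ratios rest on a bound. Its mean was 3.20 ± 0.90. Ccl8 had ratios of 0.41, 5.14 and 2.24 in WT and 4.36, 2.94 and −0.70 in KO (2.40 ± 0.79, adjusted p = 0.222). Cxcl16 was higher in 6 of 6 pairs by a smaller amount, 0.27, 0.92 and 0.33 in WT and 0.57, 0.74 and 0.17 in KO (0.50 ± 0.17, adjusted p = 0.225). Cxcl10 differed by 0.78 ± 0.31 (adjusted p = 0.282). In all, 4 members lay above 0 in 6 of 6 muscle pairs (5.58% of all probes) and 0 below (5.68%).

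Ccl5 in muscle was −3.05, −0.51 and −5.58 in WT chow and 0.45, −1.49 and −0.22 in WT HFD. In KO muscle it was −2.58, −4.98 and −6.20 on chow and −1.95, −2.62 and −4.97 on HFD. The strains' HFD arrays overlapped their chow arrays, and the log2 difference was 2.02 ± 0.76. Cx3cl1 was 2.64, 2.68 and 2.42 in WT chow, 3.21, 3.76 and 2.70 in WT HFD, 2.83, 2.11 and 2.46 in KO chow and 3.12, 3.33 and 2.43 in KO HFD. Its difference of 0.57 ± 0.22 (adjusted p = 0.266) was positive in all pairs but 1. Cxcl12 and Cxcr4 differed by 0.08 ± 0.15 and −0.09 ± 0.19.

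Markers of other cells moved in the same muscle pairs. The pan-leukocyte sum was 1.38 to 4.81 on chow and 2.59 to 23.5 on HFD, that of 14 macrophage markers 1.97 to 7.15 and 1.72 to 29.2, and that of the fibroblast markers 24.3 to 141 and 36.5 to 227. Median log2 differences were 1.29 for 7 tested pan-leukocyte genes, 1.41 for 11 macrophage and 1.06 for 9 fibroblast genes, none of them called. Their part in the members' differences was not tested. The pan-leukocyte, macrophage and dendritic cell sums were higher on HFD in 5 of 6 muscle pairs, and the fibroblast sum in 6 of 6. The pan-leukocyte sum differed most in the KO pair of experiment 1 (4.35 on chow and 23.5 on HFD), where the log2 ratios of the 8 members were 1.11 for Ccl2, 0.63 for Ccl5, 6.64 for Ccl7, 4.36 for Ccl8, 0.99 for Cxcl9, 2.40 for Cxcl10, 0.57 for Cxcl16 and 0.29 for Cx3cl1. It was lower on HFD in the KO pair of experiment 3 (3.17 and 2.80), where they were 1.86 for Ccl2, 1.23 for Ccl5, 0.21 for Ccl7, −0.70 for Ccl8, 0.79 for Cxcl9, 0.81 for Cxcl10, 0.17 for Cxcl16 and −0.04 for Cx3cl1. The fibroblast sum differed most in the KO pair of experiment 2 (24.3 on chow and 139 on HFD). The pan-leukocyte sum there was 1.62 on chow and 5.52 on HFD. The log2 ratios in that pair were 4.09 for Ccl2, 2.35 for Ccl5, 2.35 for Ccl7 and 2.94 for Ccl8. They were 1.88 for Cxcl9, 0.21 for Cxcl10, 0.74 for Cxcl16 and 1.22 for Cx3cl1. Of 14 macrophage markers, 7 to 13 were well above background on a chow muscle array, and Itgam was on none.

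In aorta 0 of 25 tested members were called over both strains (0.0309% of all probes), and 0 in WT and 0 in KO (0% in each). An unadjusted p under 0.05 was reached by 6 (15.1% of all probes, 8.45% higher and 6.68% lower), namely Ccr7, Cxcl16, Cxcl14, Cx3cl1 and Ccl19, higher on HFD, and Ccl6, lower. In WT 3 (5.77%) and in KO 2 (11.3%) reached it. Ccr7, Cxcr3 and Cxcl5 entered the aorta test only through HFD groups, and Ccl24 and Ccr3 only through chow groups, so their values there are a description.

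Ccr7, which lets dendritic and T cells follow Ccl19, was past 1 in all 3 experiments in WT aorta and in KO aorta, the single tested member in each (0.735% and 1.81% of all probes), with 0 members below −1 (0.858% and 1.12%). It was −8.20, −8.06 and −8.58 in WT chow and −6.01, −5.07 and −5.43 in WT HFD, and −5.67, −8.39 and −8.37 in KO chow and −4.66, −5.68 and −5.64 in KO HFD. No chow array was well above background, so the chow levels are bounds. In WT, 3 of 3 HFD arrays measured Ccr7. Their mean was 1.66-fold above the mean of the chow arrays' lowest levels well above background. That floor is approximate, as probes not well above background can read above it. The measured log2 difference over both strains was 2.46 ± 0.30, given without its p, since Ccr7 entered the test through WT HFD alone. In the same aorta pairs the summed dendritic cell markers were higher on HFD in 6 of 6 (1.21 to 4.28 on chow and 2.76 to 5.44 on HFD). The pan-leukocyte sum was higher on HFD in 2 of 6 (1.96 to 3.29 and 1.54 to 4.67) and the macrophage sum in 0 of 6. The T and NK cell markers were higher on HFD in 5 of 6 (11.8 to 29.1 and 19.02 to 48.6), sums above the pan-leukocyte ones. Their list includes Thy1, which was called higher in aorta than in muscle by 2.17 ± 0.29. The fibroblast sum was also higher on HFD in 6 of 6 aorta pairs. Such a sum is carried by its brightest genes. Of 10 dendritic cell markers, 6 to 9 were well above background on a chow and 7 to 8 on an HFD aorta array. Itgax was so on no chow and Cd209a on no HFD aorta array. Of 10 T and NK cell markers, 5 to 8 were so on a chow and 8 to 9 on an HFD aorta array, and Cd8a on no chow array. Their part was not tested.

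Ccl6 was lower on HFD in 6 of 6 aorta pairs, by log2 ratios of −3.51, −0.45 and −4.20 in WT and −1.80, −3.35 and −0.40 in KO, a mean of −2.29 ± 0.58 that did not pass (adjusted p = 0.203). Ccl19 had ratios of 0.81, 2.44 and 0.02 in WT and 3.03, 0.13 and 0.90 in KO (1.22 ± 0.46, adjusted p = 0.298). Cxcl14, a ligand of skin and other tissues, had 0.32, 3.98 and 0.26 in WT and 1.79, 0.69 and 2.33 in KO (1.56 ± 0.54, adjusted p = 0.273). Cxcl16 was 2.17, 2.07 and 1.82 in WT chow, 2.69, 3.08 and 1.92 in WT HFD, 1.54, 2.27 and 1.08 in KO chow and 2.70, 3.16 and 1.88 in KO HFD. Its HFD arrays were higher in 6 of 6 pairs, by 0.75 ± 0.19 (adjusted p = 0.207), and Ccl19, Cxcl14, Cxcl16 and Ccr7 made up the 4 members above 0 in all aorta pairs (5.77% of all probes), and Ccl6 the 1 below (4.49%). Beside these, macrophage marker sums in aorta were 3.94 to 10.7 on chow and 3.35 to 5.11 on HFD. Adipocyte sums were 169 to 384 and 75.3 to 145, and platelet sums 3.99 to 16.1 and 1.13 to 2.60. Each of these 3 sums was higher on HFD in 0 of 6 aorta pairs. Other sums went the opposite way, with fibroblast and pericyte sums higher on HFD in 6 of 6 aorta pairs. The smooth muscle sum was higher in 5 of 6 and the endothelial sum in 1 of 6. The part of these shifts in the members' differences was not tested.

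Ccl2 in aorta was not called for the diet, and its ratios pointed both ways. It was 3.04, 2.76 and 3.98 in WT chow and 2.83, 2.40 and 2.90 in WT HFD, 2.07, 2.52 and 4.00 in KO chow and 3.29, 3.93 and 2.17 in KO HFD. The ratios were negative in all WT pairs and in 1 of 3 KO pairs, and the log2 difference was −0.14 ± 0.45 (adjusted p = 0.907). Ccl5 had ratios of 3.15, 2.83 and −1.92 in WT and −0.64, 4.28 and 6.75 in KO (2.41 ± 1.07, adjusted p = 0.349). Cx3cl1, at 1.86, 3.20 and 1.58 in WT chow and 2.75, 3.56 and 2.80 in WT HFD, and 2.92, 2.98 and 2.52 in KO chow and 2.85, 3.84 and 2.72 in KO HFD, differed by 0.58 ± 0.22 (adjusted p = 0.293). Cxcl12 and Cxcr4 differed by −0.15 ± 0.26 and −0.48 ± 0.49, and the other Cxcl12 probe by 0.99.

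**Figure D5:**
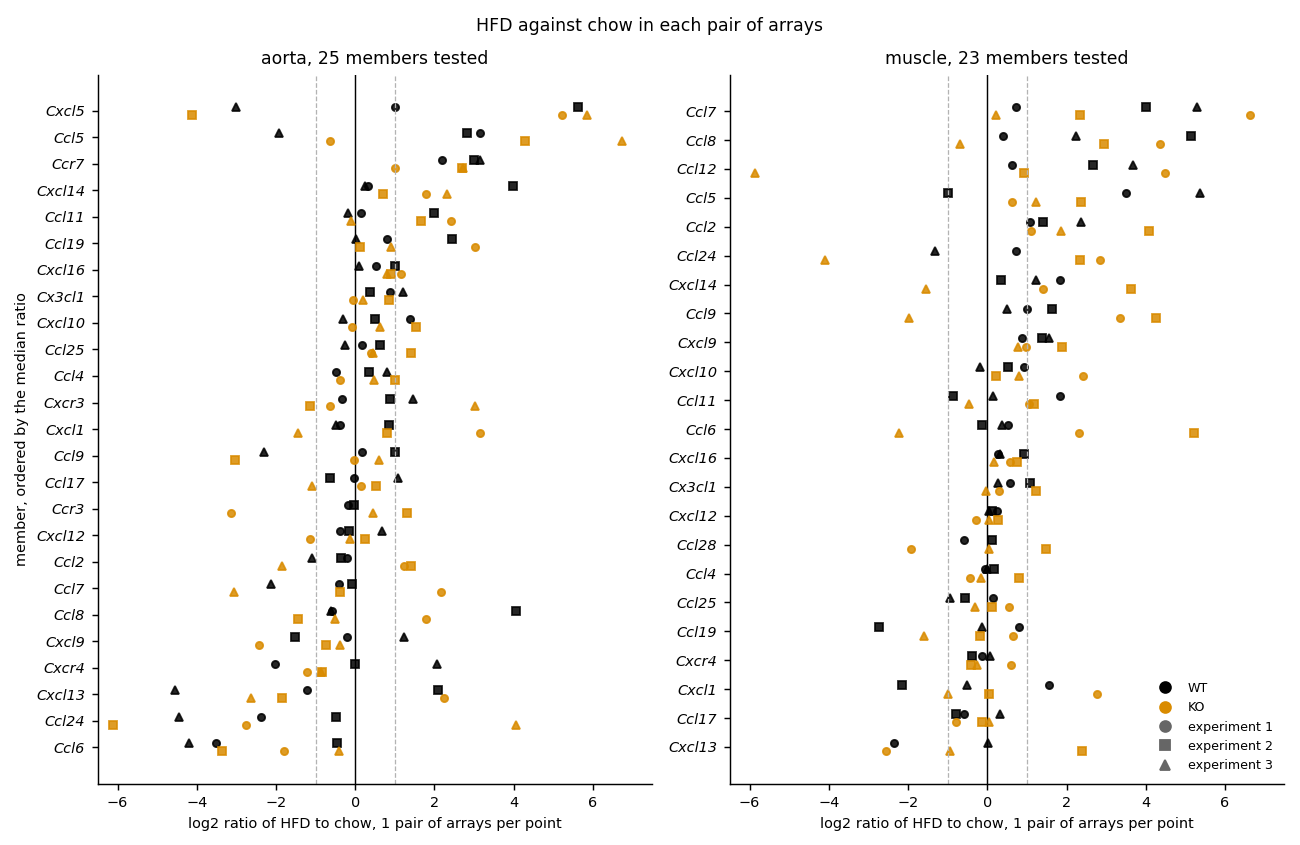
Log2 ratio of HFD to chow (horizontal axis) in each of the 6 pairs of arrays per tissue, for the members tested in aorta (left) and in muscle (right), with the colour giving the strain and the shape the experiment. In muscle all points of Ccl2, Ccl7, Cxcl9 and Cxcl16 lie right of 0, and in aorta those of Ccr7, Cxcl16, Cxcl14 and Ccl19.

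A member outside the tests came past 1 as well in each tissue. Ccl12 went below −1 in all 3 WT aorta pairs (−2.45, −4.57 and −1.86), with 1 of 3 chow and 0 of 3 HFD arrays well above background. Xcl1, which draws cross-presenting dendritic cells, went above 1 in all 3 WT muscle pairs (2.23, 1.07 and 3.68), with 0 of 3 chow and 2 of 3 HFD arrays above background. These ratios are set by levels at or near background and were not tested.

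The response of the tissues to the diet was compared directly. No member was called (0 of 27 tested, 0% of all probes), and 5 had an unadjusted p under 0.05 (9.24% of all probes). The aorta minus muscle difference in response was −1.93 ± 0.50 for Cxcl9, −2.13 ± 0.66 for Ccl2, −3.85 ± 1.25 for Ccl7, −3.30 ± 1.15 for Ccl6 and 1.75 ± 0.75 for Ccl19, with adjusted p values between 0.278 and 0.509. The response of KO against that of WT differed for 0 of 25 members in aorta and 0 of 23 in muscle (0% of all probes in both), and 0 had an unadjusted p under 0.05 (2.62% and 4.12%).

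The strains did not separate these genes either. Between KO and WT 0 members were called in chow aorta, HFD aorta, chow muscle and HFD muscle (0.0116%, 0.00387%, 0% and 0% of all probes). An unadjusted p under 0.05 was reached by 1 member, Ccl6, lower in KO chow aorta with 0.30, 0.97 and −0.62 against 1.62, 1.70 and 2.49 in WT (log2 difference −1.72 ± 0.76, adjusted p = 0.9999), beside 4.41% of all probes, and by 0 in the other 3 comparisons (1.15%, 2.42% and 3.15%). The fitted differences ran from −2.33 to 1.07 in chow aorta, −1.50 to 1.70 in HFD aorta, −1.54 to 1.02 in chow muscle and −2.76 to 0.93 in HFD muscle. These are ranges of the estimates over the members, not intervals of an estimate. With 3 arrays per group the precision is limited, and a missed threshold does not show equal levels.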

How the data were processed

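RNA of sorted endothelial cells was read on 24 one-colour (Cy3) Agilent Whole Mouse Genome arrays, 3 for each of 8 groups given by the labels, and the replicate number of a label was taken as its experiment. Per the file headers, the processed intensity of a spot came from Feature Extraction software, with background subtraction and detrending but no scaling across arrays. The headers of all 24 files name version 10.5.1.1 of it and the submitters' processing notes version 9.1. The log2 values that the authors deposited as well proved to be logs of these intensities, shifted by a constant for each array so as to bring the 75th percentile to 1 value per tissue, which sets the level of one tissue against the other.

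Here the level of a spot is the log2 of its processed intensity relative to the 75th percentile of all non-control spots on that array, with no pseudocount. Outlier spots were dropped, which removed 1 array each for Ccl22, Ccl28, Ccr1, Ccr3 and Cxcl13, and repeated spots were averaged. Accessions were looked up among RefSeq's genes for GRCm38.p6 (27479 of 41174 probes named, 18747 symbols), and 506 probes had names that differed between versions of the array design. A probe entered the test if all arrays of some group had it well above background, which gave 25865 probes for aorta, 25682 for muscle and 27387 for the 2 tissues together. The brightest probe stood for its gene.

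Tests used limma 3.58.1 in R 4.3.3 (with version 1.17.8 of the package data.table), Benjamini-Hochberg adjustment over all probes tested and a threshold of 0.05. HFD was set against chow in pairs of a strain and experiment, and strains and tissues were compared by group means without a block. A slide held the 4 groups of 1 tissue and experiment. Within a tissue, slide and experiment are therefore the same block. No slide held both tissues, so a difference between tissues cannot be told apart from one between slides. Experiment 1 had a scan session of its own. Replicates were separate pools of mice. Deviations from the group means correlated with a median r of 0.228 in diet pairs (8 of 12 over 0.1), 0.318 in strain pairs (11 of 12) and 0.222 in tissue pairs of a pool (9 of 12), and pairs of a pool share their animals. The fits were tested on simulated data. Figures and tables used Python 3.11.15, pandas 2.3.3, numpy 2.4.6 and matplotlib 3.10.9.

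The members and the lists of other genes and markers were chosen with earlier results of these data known, and the lists were written from general knowledge. Array values are given for members called in any comparison, for members past 1 or −1 in all 3 experiments of a strain and tissue, and for Cxcl12, Cxcr4, Cx3cl1, Ccl2 and Ccl5, and the rest by counts and ranges. Of a list with over 6 called genes, the 6 with the largest difference are named. Alternatives were normexp background correction (offset 50, planned on mean signals and run on median signals), quantile normalization, the deposited log2 values, other filters on dim probes, the other probe of a gene, each experiment left out, slide or pool as a block, no pairing, and the methods' t-test. A further pair, which left out arrays, was chosen after seeing the data. The number of arrays limits the precision.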

Additional observations from a re-analysis of the deposited data

Results flagged for a closer look

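For the diet, 25 members were tested in aorta and 23 in muscle. Within one strain, 3 ligands tested in both had ratios of HFD to chow with one sign in aorta and the opposite sign in muscle. This held in every pair of the 3 experiments. The share of all probes with this pattern was not computed, so the count is only a description. In WT, the aorta response of Ccl2 was lower than its muscle response by −2.16 on the log2 scale, and that of Ccl7 by −4.21. Ccl7 was well above background on 1 of 3 WT chow muscle arrays, so its value rests in part on levels near background. In KO, the aorta response of Cxcl9 was lower than its muscle response by −2.40. Ccl12, too dim in aorta to be tested there, had WT ratios of −2.45, −4.57 and −1.86 in aorta and 0.63, 2.67 and 3.67 in muscle. The difference within a single strain was not tested. Over both strains, the difference between the tissues in the response to HFD gave adjusted p values in limma of 0.368 for Ccl2, 0.384 for Ccl7 and 0.278 for Cxcl9. Groups of 3 arrays are too small for a rule on single outlying arrays, so none was applied.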

How the results depend on the processing

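Of the recomputed counts of called members, 140 stayed within 1.5 times the reported count and 3 did not. These 3 concern HFD against chow in muscle of both strains, with 0 members called as reported. There were 2 with normexp background correction (Cxcl9 and Ccl2, adjusted p = 0.037 and 0.0452), 2 when only probes well above background on every array were tested (Cxcl9 and Ccl2, adjusted p = 0.0351 and 0.0449) and 1 with the slide as a block (Cxcl9, adjusted p = 0.0279), and the cause was not tested. Leaving out each experiment in turn gave 12 to 13 members called between the tissues and 0 in every other comparison. Without experiment 1, Cxcl16 lost its call (0.83) and Cxcl2 gained one. Without experiment 3, Ccl8 lost its call (2.81). Testing only probes well above background on every array left 9 tissue calls, since Ccl7, Ccl8, Cxcl13 and Cxcl5 were then not tested. Without the 4 HFD arrays of experiment 1 there were 14, with Cxcl2 added, and without the 2 muscle arrays high in leukocyte markers 14, with Cxcl14 added. With the replicate block (the pool, for the tissues) 13 members were called between tissues and 0 between strains, and without the block of the diet pairs 0 for the diet. The call that a block did change is the one of Cxcl9 with the slide as a block.

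Signs turned in 11 single-gene values and held in the others. The tissue difference of Cxcl12 was 1.67 on its other probe. That of Cx3cl1, near 0 as reported, was 0.0013 with normexp, 0.11 with quantile normalization, 0.26 with the deposited values, between −0.23 and 0.16 when an experiment was left out, 0.080 without the HFD arrays of experiment 1 and 0.0086 without the 2 muscle arrays. The diet difference of Cxcr4 in muscle ran from −0.24 to 0.066 with an experiment left out. That of Cxcl12 in aorta ran from −0.36 to 0.15 and was 0.99 on the other probe. The methods' t-test gave 1, 2, 1 and 0 members at an unadjusted p under its threshold for HFD against chow in WT aorta, KO aorta, WT muscle and KO muscle, and 0 after Benjamini-Hochberg adjustment in each. Members at or near background, most receptors among them, have levels that are bounds, which limits what these arrays can show for them.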
